A study of Gallus gallus with 3 samples.

Results

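Ovastacin (ASTL) and the zona pellucida genes ZP2, ZP3, ZP4 and ZPAX were followed in RNA-seq libraries of cultured chicken (Gallus gallus) primordial germ cells (PGCs) and embryonic stem cells (ESCs). The genes were chosen by name, as ASTL and the zona pellucida genes of the chicken egg coat. Results of the same PGC and ESC libraries were known by then, with ASTL among the genes furthest down in PGCs. Of 7 names, 5 had a row under their own symbol among 16030 genes with annotation, out of 19152 genes counted in all. ZP1 and ZPD had no row under these symbols and are not analysed here under them. PGCs were represented by 2 libraries, replicates 2 and 3, and ESCs by a single library, replicate 2. In the study, the ESC culture stood for somatic cells and the comparison asked which chromatin regulators germ cells express. The labels named the cell type and gave no strain, sex, age, treatment or passage for any library. Because the members were chosen with this contrast known, and because the ESC side has no replicate check, their values are a description and carry no test.

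The egg of a vertebrate is wrapped in a coat of filaments built from glycoproteins that share a zona pellucida (ZP) domain. In mammals this coat is the zona pellucida, and in birds its counterpart is the inner perivitelline layer around the yolk. Hens do not make all of it in the oocyte, since ZP1 is secreted by the liver and ZP3 by the granulosa cells of the follicle. Ovastacin is a zinc metalloprotease of the astacin family. In the mouse it is stored in the cortical granules of the egg, and after fertilization it cleaves ZP2, which blocks further sperm from binding.

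The libraries were close in depth, with 19754278 to 20568106 counts. Libraries were scaled with trimmed mean of M-values (TMM) factors and levels are given as CPM, the counts scaled to the size of a library. Levels set side by side between genes are given per length, as TPM, in which counts are first divided by gene length. A count of 3, the limit that a count of 0 allows, corresponded to 0.134 to 0.169 CPM. The germ cell markers DAZL, DDX4, PIWIL1 and MAEL, 4 of 4, were at least 2-fold higher in both PGC libraries, and their CPM summed to 3570 and 3916 in PGCs against 68.5 in ESCs. Of the pluripotency markers NANOG, POU5F3, SOX2 and KLF4, 1 of 4 was 2-fold apart, namely KLF4, which was higher in PGCs. Their sums were 513 and 831 CPM in PGCs against 845 CPM in ESCs. Over all genes that reached 10 counts in a library, 21.6% were 2-fold higher in both PGC libraries and 15.8% were 2-fold lower. Between the PGC libraries, the log2 difference had an SD of 0.60 over genes, far beyond counting error (chi-square of 44.5 per degree of freedom). Mitochondrial genes took 4.44% and 6.54% of counts in PGCs against 10.1% in ESCs. Fibroblast markers, 3 of 4 matched, summed to 622 and 730 CPM in PGCs against 57.6 CPM in ESCs. Their part in the values of the members was not tested.

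Genes were called higher or lower in PGCs where both PGC libraries lay at least 2-fold above, or at least 2-fold below, the level in ESCs. Of the 14489 genes that reached 10 counts in any library, 21.6% were higher and 15.8% were lower by this rule. A gene with fewer than 10 counts in ESCs passes this minimum only through a PGC library, so the minimum itself favours a higher call. The reverse holds for a gene with fewer than 10 counts in both PGC libraries. All 5 members passed that minimum, 4 of them with no count above 19. Of the 5, 2 were lower (ASTL and ZPAX), 1 was higher (ZP2), and ZP3 and ZP4 were neither. The members were chosen with this contrast in view, so nothing is read from these shares. In these bulk samples, fewer cells that express a gene and less RNA per cell cannot be told apart.

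**Figure D1:**
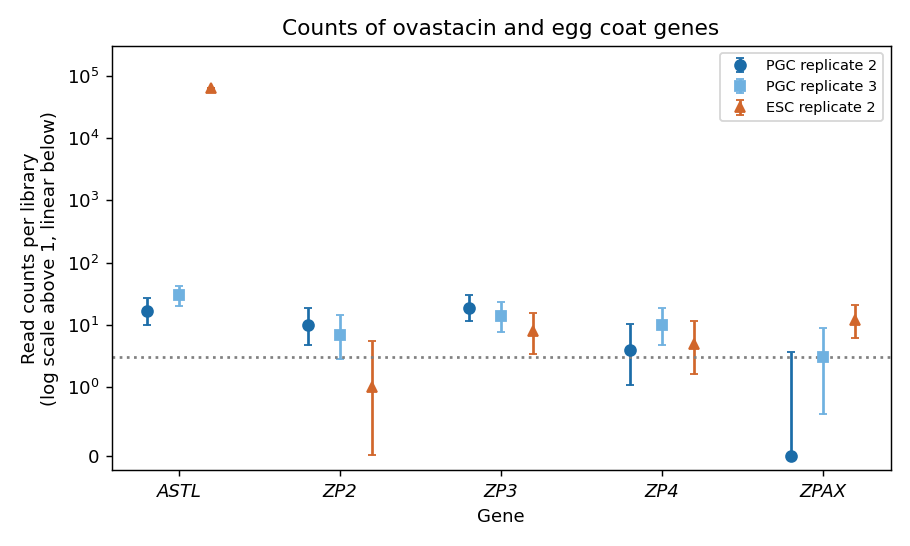
Read counts of ASTL, ZP2, ZP3, ZP4 and ZPAX in each library, with exact 95% Poisson intervals as bars and a dotted line at 3 counts. ASTL had 17 and 30 counts in the PGC libraries against 63353 in the ESC library, whereas no zona pellucida gene exceeded 19 counts anywhere.

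ASTL (ENSGALG00000037220) lies on the plus strand of chromosome 5 of the galGal5 build, from 22351047 to 22362930, with 14 exonic blocks and 1567 exonic bases. It had 17 counts in PGC replicate 2 and 30 counts in PGC replicate 3, against 63353 counts in the ESC library. Scaled, this was 0.759 and 1.44 CPM in PGCs against 3568 CPM in ESCs. The groups were far apart and both PGC libraries were low, though above the floor of 3 counts. The log2 ratios to the ESC library were −12.02 and −11.18, with a mean of −11.60 ± 0.60 (SD, n = 2). On the pooled PGC counts ASTL was 3281-fold lower in PGCs, with an exact 95% interval of 2467 to 4466 that covers counting error only. With the prior count of 2 that enters the log2 values, the mean log2 ratio was the lowest of the 14489 genes. HOXB4, at −10.01, had 0 counts in both PGC libraries, so its ratio is set by the prior count. HOXB1 was 2366-fold lower on pooled counts, with an exact interval of 654 to 19549 that includes the ASTL value. The rank of ASTL under other prior counts was not tested.

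This protease was a trace message in PGCs and among the most abundant in the ESC library. In PGCs ASTL was at 1.10 and 1.81 TPM, above 10.3% and 16.9% of the 14489 genes, while EEF1A1, a translation elongation factor, had 4499 and 5080 TPM and the pluripotency factor NANOG 487 and 622 TPM. In the ESC library ASTL took 0.308% of all counts (exact Clopper-Pearson 95% interval 0.306 to 0.310). Per length it reached 3483 TPM, rank 6 among genes of the nuclear genome. The genes above it with a symbol were EEF1A1 (7245 TPM), NPM1 (5812 TPM), which acts in ribosome assembly, ENO1 (3937 TPM), a glycolytic enzyme, and RPS20 (3555 TPM), a ribosomal protein. Just below it stood ACTB, cytoplasmic actin, at 3253 TPM. NANOG and POU5F3, another pluripotency factor, had 397 and 788 TPM in the same library.

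The PGC libraries differed a little from each other in ASTL. The level in replicate 3 was 1.90 times that in replicate 2, with an exact interval of 1.01 to 3.67 for counting error. Both levels stayed more than 3 orders of magnitude under that of the ESC library. The epithelial markers EPCAM and CDH1 were lower in PGCs in the same direction, 2 of the 2 matched of 4 listed, against 15.8% over all genes. Their CPM summed to 124 and 231 in PGCs against 1588 in ESCs. Their part in the ASTL difference was not tested. The row named CDH1 is described as cadherin 3, and which of these genes it holds was not tested. A gene without a symbol on the same strand, described as PR/SET domain 11 (ENSGALG00000008053), spans ASTL but shares 0 exonic bases with it, and had 734 and 698 counts in PGCs against 982 counts in ESCs.

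**Figure D2:**
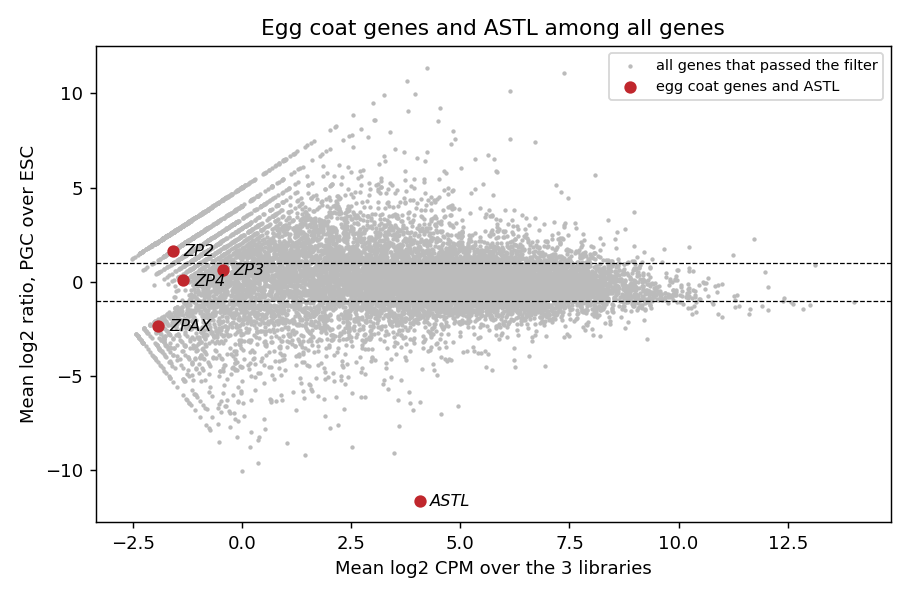
Mean log2 ratio of PGC over ESC against mean log2 CPM over the 3 libraries, for the 14489 genes that passed the minimum (grey) and for ASTL and the zona pellucida genes (red), with dashed lines at 2-fold. ASTL is at −11.60, the lowest point of the plot, while ZP2, ZP3, ZP4 and ZPAX lie at the low end of expression.

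The zona pellucida genes showed no such level in either cell type. Together ZP2, ZP3, ZP4 and ZPAX had 33 and 34 counts in the PGC libraries and 26 counts in the ESC library. The scaled sum in PGCs was 1.06 times that in ESCs, with an exact interval of 0.664 to 1.74. In TPM the sum was 2.04 and 1.90 in PGCs and 1.20 in ESCs, against a median single gene of 20.6 and 17.7 TPM in PGCs and 13.5 TPM in ESCs. ASTL was at 0.540 and 0.954 times the summed TPM of these genes in PGCs, and at 2895 times their sum in ESCs.

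ZP3 encodes a structural glycoprotein of the coat, one that binds sperm in the mouse. The gene (ENSGALG00000001559, chromosome 10, 2565044 to 2567437, plus strand, 9 exonic blocks) had 19 and 14 counts in PGCs against 8 counts in ESCs. This was 0.849 and 0.672 CPM in PGCs against 0.451 CPM in ESCs, both PGC values being higher. The log2 ratios were 0.79 and 0.49, under 2-fold in each library. The pooled ratio was 1.69 with an exact interval of 0.768 to 4.25, so a difference was not detectable at this depth. A gene described as ZP3-like (ENSGALG00000045179), without a symbol, lies 1923 bases away on the same strand and had 5 and 2 counts in PGCs against 6 counts in ESCs. How reads shared between these similar genes were counted is not stated, and this leaves both values uncertain.

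ZP2 encodes the coat protein that ovastacin cleaves in the mouse. It (ENSGALG00000002428, chromosome 14, 14975341 to 14983122, minus strand, 20 exonic blocks) had 10 and 7 counts in PGCs against 1 count in ESCs. This was 0.447 and 0.336 CPM in PGCs against 0.0563 CPM in the single ESC library, where the count lay below the floor of 3 counts. The log2 ratios were 1.82 and 1.49, with a mean of 1.65 ± 0.23 (SD, n = 2). The pooled ratio of 6.98 had an exact interval of 1.09 to 292, since it rests on 1 count in the ESC library. ZP2 reached the minimum of 10 counts only through PGC replicate 2, so the minimum itself favoured a gene high in that library. The sign was opposite to that of ASTL, but the minimum favoured it and no contrast is drawn. Per length ZP2 had 0.397 and 0.258 TPM in PGCs against 0.0336 TPM in ESCs.

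ZP4, once called ZPB, is another filament component (ENSGALG00000005462, chromosome 6, 16560253 to 16564764, minus strand, 12 exonic blocks). It had 4 and 10 counts in PGCs against 5 counts in ESCs, and the ESC level of 0.282 CPM lay between the PGC levels of 0.179 and 0.480 CPM. Its log2 ratios of −0.46 and 0.61 had opposite signs. The pooled ratio was 1.15 with an exact interval of 0.392 to 4.08.

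ZPAX belongs to a branch of the ZP family that is present in birds, amphibians and fish. The gene (ENSGALG00000016465, chromosome 3, 100671644 to 100682533, minus strand, 19 exonic blocks) had 0 and 3 counts in PGCs against 12 counts in ESCs. Neither PGC library exceeded the floor of 3 counts, and the ESC level was 0.676 CPM. The log2 ratios were −2.98 and −1.68. On the pooled counts ZPAX was 9.74-fold lower in PGCs, with an exact interval of 2.63 to 53.8. It reached the minimum only through the ESC library. Among the zona pellucida genes ZPAX alone was lower in both PGC libraries, as ASTL was, a direction that the minimum favoured. It had 0.411 TPM in ESCs against 3483 TPM for ASTL.

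Within a cell type, the order of the zona pellucida genes per length was not the same. In PGCs ZP3 was highest, at 1.40 and 0.960 TPM, and ZPAX lowest, at 0 and 0.113 TPM, with ZP2 and ZP4 between them and exchanging places between the libraries. In ESCs the order was ZP3 (0.501 TPM), ZPAX (0.411 TPM), ZP4 (0.258 TPM) and ZP2 (0.0336 TPM). The exact count intervals of ZP3, ZPAX and ZP4 in ESCs, 3.45 to 15.8, 6.20 to 21.0 and 1.62 to 11.7 counts, overlapped. The order of these neighbours by counts is therefore not resolved at this depth. The interval of ZP2, 0.0253 to 5.57 counts, overlapped those of ZP4 and ZP3 and lay below that of ZPAX. In PGC replicate 3 the intervals of ZP3 (7.65 to 23.5), ZP4 (4.80 to 18.4), ZP2 (2.81 to 14.4) and ZPAX (0.619 to 8.77) overlapped. In PGC replicate 2 that of ZP3 (11.4 to 29.7) overlapped that of ZP2 (4.80 to 18.4), and that of ZPAX (0 to 3.69) that of ZP4 (1.09 to 10.2). The intervals of ZP2 and ZP4 overlapped there as well. In replicate 2 the interval of ZP3 lay above those of ZP4 and ZPAX, and that of ZP2 lay above that of ZPAX. These intervals are of counts and are not divided by gene length, so the order per length was not tested with them. ZP3 stood above 12.4% and 10.8% of the 14489 genes in PGCs and above 11.9% in ESCs.

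The RefSeq gene table of assembly GRCg7b lists ZPD as an older name of UMOD, and UMOD was present under that symbol (ENSGALG00000041143, chromosome 11, 568810 to 572775 in galGal5). It is not counted among the 5 members. UMOD had 52 and 20 counts in PGCs against 2 counts in ESCs, or 2.32 and 0.960 CPM against 0.113 CPM. Both PGC values were higher, with log2 ratios of 3.52 and 2.33, and the pooled ratio was 14.8 with an exact interval of 3.95 to 124. Whether this row is the egg coat gene was not tested.

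Other proteins with a ZP domain, which serve in the inner ear, the kidney and TGF-beta reception, were examined as a list. Of 11 genes 9 were matched and 8 passed the minimum, UMOD included. UMOD and TECTA were higher, ENG was lower, and 5 were neither. The median log2 ratio was 0.02 against 0.03 over all genes, of which 21.6% were higher and 15.8% were lower. Both UMOD and TECTA passed only through PGC libraries, so the minimum favoured their higher calls. TGFBR3, a co-receptor for TGF-beta, had 22.1 and 19.1 CPM in PGCs against 23.6 CPM in ESCs. TECTA, a protein of the tectorial membrane, had 20 and 14 counts in PGCs against 4 counts in ESCs, and ENG, a TGF-beta co-receptor of endothelium, had 16 and 15 counts against 45 counts. OIT3 had 6.12 and 9.89 CPM in PGCs against 18.1 CPM in ESCs, 2-fold apart in replicate 2 alone (log2 ratios of −1.55 and −0.86).

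The proteases most like ovastacin did not share its level. Of 5 other astacin-family genes 4 were matched and 3 passed the minimum, of which 1 was lower and 2 were neither. The median log2 ratio was 0.15 against 0.03 over all genes, of which 21.6% were higher and 15.8% were lower. Scaled by total counts or as TPM, MEP1A was called higher. It reached the minimum only through PGC libraries, so the minimum favoured that call. TLL1, which like BMP1 processes procollagen, had 24 and 25 counts in PGCs against 63 counts in ESCs, with log2 ratios of −1.64 and −1.49. TLL2 had 82 and 115 counts against 72 counts, and MEP1A, a meprin of gut and kidney, had 27 and 15 counts against 6 counts. In the ESC library TLL1 had 1.79 TPM, TLL2 1.79 TPM and MEP1A 0.220 TPM, against 3483 TPM for ASTL. Fetuin-B, the inhibitor that holds ovastacin in check in mammals, was not matched by symbol and is not analysed here.

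Proprotein convertases cut ZP proteins free of their membrane anchor. All 5 listed genes were matched and 4 passed, with 1 higher, 2 lower and 1 neither. The median log2 ratio was −0.13 against 0.03 over all genes, of which 21.6% were higher and 15.8% were lower. Scaled by total counts or as TPM, 2 of the 4 were higher (PCSK5 and PCSK6) and 0 were lower. Their median was then 0.18 and 0.33, against 0.34 and 0.49 over all genes. PCSK6 was higher, with 28.5 and 32.5 CPM in PGCs against 7.21 CPM in ESCs. FURIN was lower, with 13.5 and 14.5 CPM against 32.6 CPM, and PCSK7 was lower, with 13.0 and 12.3 CPM against 26.5 CPM. FURIN and PCSK7 were just past 2-fold, at mean log2 ratios of −1.21 and −1.06, and PCSK5 had 28.0 and 34.2 CPM in PGCs against 17.9 CPM.

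**Figure D3:**
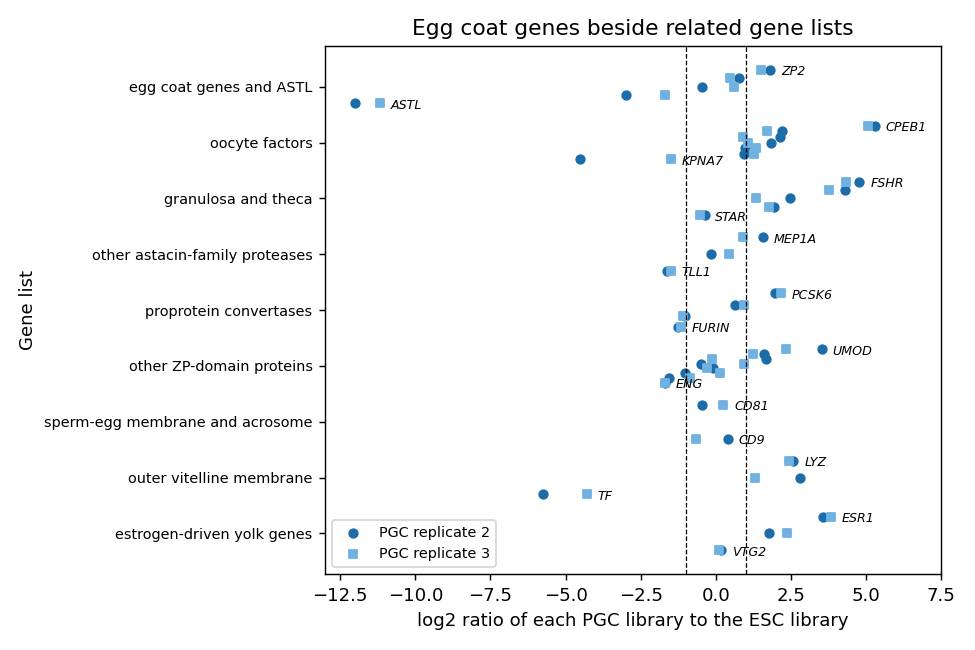
The log2 ratio of PGC replicate 2 and of PGC replicate 3 to the ESC library for ASTL and the egg coat genes and for the matched genes of 8 related lists that passed the minimum, with dashed lines at 2-fold and the lowest and highest gene of each list named. ASTL, at −12.02 and −11.18, lies well to the left of every other gene shown, of which TF is nearest, at −5.74 and −4.30.

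Genes of the oocyte were compared, since the egg coat genes are usually read as markers of it. Of 18 listed genes 9 were matched and 7 passed the minimum, with 3 higher, 1 lower and 3 neither. The median log2 ratio was 1.46 against 0.03 over all genes, of which 21.6% were higher and 15.8% were lower. Scaled by total counts or as TPM, 6 of the 7 oocyte genes were higher, with BMP15, LHX8 and ZAR1L added. Under these settings 3872 and 4272 of all 14489 genes were higher, against 3124 under TMM. BMP15 and LHX8 reached the minimum only through PGC libraries, so the minimum favoured their higher calls. CPEB1, which holds maternal mRNAs silent through their poly(A) tail, had 3652 and 2924 counts in PGCs against 72 counts in ESCs, with log2 ratios of 5.30 and 5.08. ZAR1, a factor of the oocyte-to-embryo transition, had 832 and 541 counts against 141 counts, and WEE2, an inhibitory kinase of the oocyte cell cycle, had 83 and 44 counts against 17 counts. KPNA7, a maternal importin, was lower like ASTL, at 3 and 37 counts in PGCs against 92 counts in ESCs, and the PGC libraries were far apart. The oocyte growth factors had few counts, as the zona pellucida genes did. GDF9 had 5 and 9 counts in PGCs against 8 counts in ESCs, and BMP15 14 and 17 counts against 5 counts. LHX8 had 41 and 15 counts against 6 counts. The oocyte markers GDF9, BMP15 and LHX8, 3 of 5 matched, summed to 2.68 and 1.97 CPM in PGCs against 1.07 CPM in ESCs, and their part in the ZP2 difference was not tested.

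Genes of the follicle and liver, the other tissues that supply the egg coat, were compared next. Granulosa and theca genes, 7 of 11 matched and 5 passing, had 4 higher, 0 lower and 1 neither. Their median log2 ratio was 1.90 against 0.03 over all genes, of which 21.6% were higher and 15.8% were lower. LHCGR, the luteinizing hormone receptor, had 387 and 247 counts in PGCs against 14 counts in ESCs, and FSHR, the receptor for follicle-stimulating hormone, had 93 and 63 counts against 1 count. FOXL2, a transcription factor of granulosa cells, had 24 and 9 counts against 2 counts, and AMH, the anti-Müllerian hormone, 16 and 13 counts against 2 counts. FOXL2, AMH and FSHR reached the minimum only through PGC libraries, so the minimum favoured their higher calls. The granulosa markers FOXL2, AMH and FSHR, 3 of 5 matched, summed to 5.94 and 4.08 CPM in PGCs against 0.282 CPM in ESCs, and their part in the values of ZP2 and ZP3 was not tested. The enzyme gene CYP11A1, which starts steroid synthesis, had 1 and 0 counts in PGCs against 2 counts in ESCs.

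The hepatocyte markers ALB, APOA1, FGB and TTR, 4 of 4 matched, summed to 18.8 and 10.2 CPM in PGCs against 3.44 CPM in ESCs. Of these, 3 were higher (ALB, FGB and TTR). The median log2 ratio was 2.39 against 0.03 over all genes, of which 21.6% were higher and 15.8% were lower. TTR had 34 and 15 counts in PGCs against 1 count in ESCs. It reached the minimum only through PGC libraries, so the minimum favoured its higher call. FGB, a fibrinogen chain and the largest part of the sum in PGCs, had 12.6 and 5.47 CPM in PGCs against 1.69 CPM in ESCs. APOA1 went the other way and was called neither. It had 7 and 14 counts in PGCs against 20 counts in ESCs, with log2 ratios of −1.58 and −0.67. Of the estrogen-driven yolk genes 4 of 5 were matched and 3 passed, with 2 higher and 1 neither. The median log2 ratio was 2.08 against 0.03 over all genes, of which 21.6% were higher and 15.8% were lower. ESR1, the estrogen receptor, had 24 and 27 counts in PGCs and 0 counts in ESCs, and so passed only through PGC libraries. VTG1, a yolk precursor, had 57 and 82 counts in PGCs against 12 counts in ESCs, and VTG2, the major one, 54 and 48 counts against 38 counts.

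The outer layer of the hen's perivitelline membrane is laid down in the oviduct from egg-white proteins. Of 7 such genes 6 were matched and 3 passed, with 2 higher and 1 lower. The median log2 ratio was 2.04 against 0.03 over all genes, of which 21.6% were higher and 15.8% were lower. TF, ovotransferrin, was the exception in level, with 43 and 112 counts in PGCs against 1911 counts in ESCs, or 1.92 and 5.38 CPM against 108 CPM. This iron carrier was lower in PGCs, as ASTL was, with log2 ratios of −5.74 and −4.30. LYZ (lysozyme) had 11 and 9 counts in PGCs and 0 counts in ESCs. Ovalbumin (OVAL) had 13 and 3 counts and 0 counts, and VMO1 4 and 1 counts and 0 counts. LYZ and OVAL reached the minimum only through a PGC library, so the minimum favoured their higher calls. Of the sperm-egg membrane genes only CD9 and CD81, both general tetraspanins, passed the minimum among 3 matched of 9, with 29.8 and 14.3 CPM (CD9) and 51.8 and 85.1 CPM (CD81) in PGCs against 22.6 and 71.5 CPM in ESCs. Neither was 2-fold apart under TMM, total counts or TPM.

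Sperm proteins that bind the egg coat were added after their values had been seen, from the gene descriptions. ZPBP, a protein of the sperm acrosome in mammals, had 299 and 195 counts in PGCs against 7 counts in ESCs, or 13.4 and 9.36 CPM against 0.394 CPM. Both PGC libraries were high, with log2 ratios of 4.77 and 4.26. ZPBP reached the minimum only through PGC libraries, so the minimum favoured a higher value in PGCs. ZPBP2 had 7 and 2 counts in PGCs and 0 counts in ESCs. Per length ZPBP had 7.10 and 4.30 TPM in PGCs, above the 1.40 and 0.960 TPM of ZP3, the highest of the zona pellucida genes in the same libraries.

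**Figure D4:**
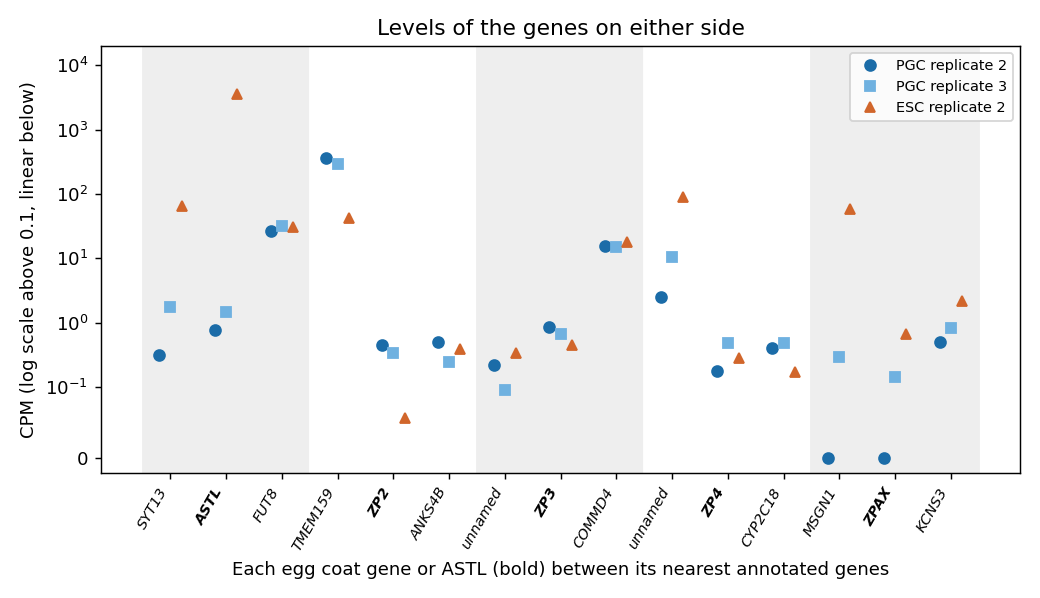
CPM in each library for ASTL and the zona pellucida genes (bold) and for the nearest annotated gene on either side of each, in order of coordinate. Next to ASTL, SYT13 had 0.313 and 1.78 CPM in PGCs against 65.0 CPM in ESCs, next to ZPAX, MSGN1 had 0 and 0.288 CPM against 58.0 CPM, and next to ZP2, TMEM159 had 363 and 293 CPM against 42.5 CPM.

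The genes on either side of each member were examined as their genomic setting. Over all genes, 21.6% were higher and 15.8% were lower. Of the 10 flanking genes, 1 was higher, 4 were lower, 4 were neither and 1 did not pass the minimum. CYP2C18, next to ZP4, had 9 and 10 counts in PGCs against 3 counts in ESCs and was higher under total counts and TPM, which made 2 higher. It passed the minimum only through PGC replicate 3, so the minimum favoured a higher call. SYT13, a synaptotagmin 16401 bases from ASTL on the other strand, had 7 and 37 counts in PGCs against 1155 counts in ESCs. FUT8, a fucosyltransferase 242516 bases away on the other side, had 26.9 and 31.4 CPM in PGCs against 31.2 CPM in ESCs, with log2 ratios of −0.21 and 0.01. The gene on one side of ASTL was therefore lower in PGCs too, whereas that on the other side differed by less than 2-fold. Within 150 kb of ASTL lay 5 other genes, SYT13 and the spanning gene included, of which 4 passed the minimum. Of these, 3 were lower and 0 were higher, also under total counts and TPM, against 15.8% lower over all genes. Whether the region differed as a whole was not tested. Besides SYT13 the lower genes were ENSGALG00000033100 and ENSGALG00000008047. The first, described as a myb-related transcription factor, had 171 and 204 counts in PGCs against 476 counts in ESCs. ENSGALG00000008047 had 3 and 1 counts against 11 counts. It passed the minimum only through the ESC library, so the minimum favoured a lower call. SYT13 had 14.0 TPM in ESCs, far under ASTL.

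The zona pellucida genes that were called, ZP2 and ZPAX, each passed the minimum only through the cell type in which they were higher. The minimum favoured those directions, so nothing is read from a flanking gene that shared them. Over all genes, 21.6% were higher and 15.8% were lower. MSGN1, a transcription factor of presomitic mesoderm, lies 6651 bases from ZPAX on the opposite strand and had 0 and 6 counts in PGCs against 1030 counts in ESCs. KCNS3, a potassium channel subunit on the other side of ZPAX, had 11 and 17 counts against 38 counts and was lower except under TPM. TMEM159 lies 3782 bases from ZP2 on the opposite strand and had 8117 and 6097 counts in PGCs against 754 counts in ESCs, with log2 ratios of 3.09 and 2.78. ANKS4B, on the other side of ZP2, had 11 and 5 counts against 7 counts. Of the members that were not called, ZP4 lay 3988 bases from an unnamed gene (ENSGALG00000020899) with 56 and 218 counts in PGCs against 1619 counts in ESCs, and ZP3 lay 870 bases from COMMD4, with 351 and 308 counts against 322 counts. The strand setting of the counting was not stated, and the part of reads from neighbouring genes in the low counts of ZPAX and ZP2 was not tested.

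The genes whose pair of log2 ratios lay nearest to that of ASTL were sought among 7200 genes with a symbol and at least 10 CPM in the ESC library. By Euclidean distance over the 2 log2 ratios they were HOXB4 (2.33), HOXB1 (2.79), NOXO1 (3.54), KRT19 (4.18) and CDX4 (4.34). Nearness here rests on 3 libraries and a single ESC library that both ratios share. For HOXB4 and HOXB1, with 0 to 2 counts in PGCs, the distance also depends on the prior count of 2. HOXB4 and HOXB1 pattern the body axis, and had 0 and 0 counts and 0 and 2 counts in PGCs against 1799 and 1944 counts in ESCs. NOXO1, an organizer of NADPH oxidase, had 22 and 34 counts against 13320 counts, KRT19, an epithelial keratin, 5 and 35 counts against 5821 counts, and CDX4, a caudal homeobox factor, 4 and 4 counts against 1895 counts. In the ESC library ASTL exceeded NOXO1, the next most abundant of these, at 3483 TPM against 787 TPM.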

How the data were processed

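Total RNA of cultured cells from 3 labelled libraries was analysed, grouped by the sample titles. Per the study's methods, the authors aligned paired-end reads with TopHat and Bowtie 2 to Ensembl transcripts of galGal5. The deposited counts per gene, not normalized, came from featureCounts, and the same table gave exon coordinates and gene lengths. The authors' second table held a deposited signal (counts over a DESeq2 size factor) with fold changes and p-values, which were not used, and gave the gene symbols. A further 4 columns of per-sample values, named for replicate 1 of PGCs and of ESCs, matched no sample label. These replicates belong to the study's own comparison and are not used here.

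Genes with at least 10 counts in a library were kept. TMM factors and log2 CPM (prior count 2) came from edgeR 4.0.16 in R 4.3.3. TPM used the deposited lengths. Log2 ratios to the ESC library were taken per gene for PGC replicates 2 and 3. With 1 ESC library and members chosen on this contrast, no model was fitted. Intervals are exact 95% intervals (Poisson, conditional binomial or Clopper-Pearson, scipy 1.17.1) and cover counting error only, since reads are not independent molecules. Members and lists were chosen with earlier results of these data known. Named genes were the members, the list genes 2-fold apart or with at least 10 CPM, the nearest annotated genes and the 5 genes closest to ASTL in ratio. Other named list genes were chosen after their values were seen. Erythroid, muscle and fibroblast markers were also listed. Erythroid markers had 0 of 4 genes matched. Muscle markers summed to 15.9 and 8.50 CPM in PGCs against 9.24 CPM in ESCs (ACTA1 higher, DES lower). Fibroblast markers, 3 of 4 matched, summed to 622 and 730 CPM against 57.6 CPM (COL3A1 higher, POSTN lower, COL1A2 neither). Over all genes, 21.6% were higher and 15.8% were lower. Alternatives covered DESeq2 1.42.0 size factors, total counts, TPM, prior counts, count minimums, a 4-fold threshold and leaving out each PGC library.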

Additional observations from a re-analysis of the deposited data

How the results depend on the processing

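The log2 ratio of ASTL lay between −11.99 and −11.15 over the settings run, which left out each PGC library among others. That of ZPAX lay between −3.44 and −1.57, ZP2 between 1.07 and 2.35 and ZP3 between 0.49 and 1.03, each with its direction kept. ZP4 lay between −0.43 and 0.60, so its sign followed the setting. With a prior count of 5, or a 4-fold threshold, 0 members were higher. With a 4-fold threshold 1 member, ASTL, was lower. With at least 20 counts required, only ASTL was left, so 0 members were higher and 1 was lower. Over all genes, a 4-fold threshold gave 1491 higher and 859 lower genes in place of 3124 and 2293. Total counts moved the median log2 ratio of all genes by 0.31 and TPM by 0.46, and the share of higher genes among those called from 57.7% to 70.2% and 74.9%, with 1431 lower genes under TPM. Neither changed the call of a member. No paired analysis was made, because a replicate number shared by the groups does not show that the cultures were paired. The study's methods name alternative sequencers, companies and read lengths and do not say which applied to each library. A batch difference between the ESC library and the PGC libraries was therefore not tested. With 0 to 19 counts, the 4 zona pellucida genes are limited by depth.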
